A study of Mus musculus with 10 samples.

Results

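TGF-β signaling genes were followed in the mouse heart after forced treadmill training. They comprised 10 named genes: the ligands Tgfb1, Tgfb2 and Tgfb3, the receptors Tgfbr1, Tgfbr2 and Tgfbr3, the latent binders Ltbp1, Ltbp3 and Ltbp4, and the signal transducer Smad3. They were chosen by name from 56748 genes in the count tables, and all 10 had an Ensembl identifier there and enough reads to be tested. RNA came from whole hearts, both atria included, of wild-type C57BL/6 mice bought at 8 weeks of age, with 1 library per heart. The 5 Exercise mice rested for at least 2 weeks, were acclimatized for 1 week and then ran for 8 weeks at 15 m/min, 120 min per day on 5 days per week. The 5 Control mice were sedentary and of the same age. The training took place at the same time each day, while the hour of heart collection is not given in the sources used here.

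TGF-β ligands are made as latent dimers, in which the mature growth factor stays bound to its own propeptide. A latent TGF-β binding protein (LTBP) tethers this complex to the extracellular matrix, and the ligand acts only once integrins or proteases have freed it. The free ligand binds the type II receptor, which activates the type I receptor, and this kinase phosphorylates SMAD2 and SMAD3, which enter the nucleus with SMAD4. In the heart the pathway is best known for turning fibroblasts into matrix-producing cells, and it also acts on endothelium and cardiomyocytes. The paper's discussion lists TGF-β/BMP/SMAD signaling among remodeling pathways that training reactivated. The comparison asked whether training changed the RNA of these genes. The paper also ran gene set enrichment on ranked genes, whereas single genes were tested here, so its statement on the pathway was not tested.

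Of the 10 genes, 1 was called at a false discovery rate (FDR) below 0.1 in edgeR's quasi-likelihood test across 15454 genes, and this was Ltbp1, which rose. The background was 7.01% of all tested genes called in either direction, 2.75% higher and 4.26% lower, so that 1 of 10 is a share near that of all genes. Ltbp1 was also the only 1 of the 10 whose CPM did not overlap between the groups, against 5.06% of all tested genes. CPM are read counts relative to library size, scaled by TMM factors that correct for library composition. The log2 fold changes (Exercise against Control) of 8 of the 10 genes were above 0, with a median of 0.13, while 50.1% of all tested genes were above 0. With unadjusted p-values from the same edgeR fit, 4 of the 10 were under 0.05, against 20% of all tested genes. DESeq2 called 2 of the 10, Tgfb2 and Ltbp1, against 9.86% of the 14308 genes to which it gave an adjusted p. In whole-heart RNA, fewer cells of a type and less RNA per cell cannot be told apart.

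The promoters of Ltbp1 and Tgfb2 are shown because Ltbp1 passed the test and Tgfb2 had the largest log2 fold change of the 10. Each runs from 250 bases before to 50 bases after a RefSeq start site, taken from a RefSeq table of GRCm38.p6 and located here in GRCm39 by an exact match that occurred once on its chromosome. Ltbp1 has 2 such starts, 173252 bases apart on the plus strand of chromosome 17, at chr17:75312274-75312573 and chr17:75485526-75485825. The Tgfb2 promoter lies on the minus strand at chr1:186438137-186438436. Capitals mark motifs found on either strand, and these did not overlap each other.
Ltbp1 upstream promoter: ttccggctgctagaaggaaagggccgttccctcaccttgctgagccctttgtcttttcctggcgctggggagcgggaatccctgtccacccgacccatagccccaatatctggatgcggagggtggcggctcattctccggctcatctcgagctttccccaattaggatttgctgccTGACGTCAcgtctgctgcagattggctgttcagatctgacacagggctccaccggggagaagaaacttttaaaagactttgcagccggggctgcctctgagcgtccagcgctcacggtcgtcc
Ltbp1 internal promoter: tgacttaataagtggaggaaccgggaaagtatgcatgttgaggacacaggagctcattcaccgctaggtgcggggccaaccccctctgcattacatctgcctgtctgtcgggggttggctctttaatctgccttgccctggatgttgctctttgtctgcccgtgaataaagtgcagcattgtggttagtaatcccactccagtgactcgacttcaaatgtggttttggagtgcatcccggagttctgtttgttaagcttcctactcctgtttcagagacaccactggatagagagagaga
Tgfb2 promoter: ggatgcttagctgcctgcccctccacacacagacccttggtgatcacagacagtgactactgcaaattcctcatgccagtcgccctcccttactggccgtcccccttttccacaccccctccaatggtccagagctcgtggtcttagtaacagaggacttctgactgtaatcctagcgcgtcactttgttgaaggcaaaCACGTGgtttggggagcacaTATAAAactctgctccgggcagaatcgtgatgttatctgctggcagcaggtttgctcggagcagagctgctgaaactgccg

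In these letters, the upstream Ltbp1 promoter held the cAMP response element TGACGTCA, beginning 73 bases before the start. This motif was in 1.79% of 32851 mouse promoters of the same length. The internal Ltbp1 promoter held none of the motifs marked. Coding transcripts near the upstream start have 6715 and 6718 bases, and the longest near the internal start have 5311 and 5571 bases. The length of Ltbp1, weighted by isoform abundance, was 5276 to 5589 bases in Exercise and 5188 to 5609 bases in Control hearts. These lengths are nearer those of the internal start, but the use of each start was not tested. The Tgfb2 promoter held the E-box CACGTG, beginning 51 bases before the start, and the letters TATAAA, 31 bases before it, which were in 7.15% and 13.6% of all promoters. The search also covered the SMAD sequences AGCCAGACA and GTCTAGAC, the AP-1 sequence TGANTCA and the TEAD sequence CATTCC. The table held promoters of 8 of the 10 genes, 12 sequences in all, and lacked Tgfb3 and Tgfbr3. Neither SMAD sequence was in any of the 12, against 0.387% and 0.213% of all promoters, and the AP-1 sequence was in 1, that of Ltbp3, against 7.81%. The TEAD sequence was in none of the 12, against 14.7% of all promoters. The GC box GGGCGG, searched but not marked, was in 6 of the 12 and in 35.7% of all promoters. The 6 were promoters of Tgfbr1, Tgfb1, Smad3 and Ltbp4, with Ltbp4 counted more than once. A match of letters is a description and not a binding site.

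The libraries held between 29461697 and 39431030 reads counted on genes, with the Exercise libraries between 29461697 and 35945417. Reads counted on 1 of the 10 genes in 1 heart ranged from 324 for Tgfb2 to 23303 for Ltbp4. Pairs of hearts within a group differed beyond sampling of reads (chi-square over its degrees of freedom 6.02 to 27.8), so errors are given between hearts. The summed CPM of 8 cardiomyocyte markers lay between 52622.6 and 60982.4. Cardiomyocyte and atrial markers were both plentiful, as the label of whole heart has it. Several cell type lists held genes called between the groups, and their part in the results was not tested. Among all tested genes, 2.75% were called higher and 4.26% lower. At an FDR below 0.1, 2 of 8 fibroblast markers were higher (summed CPM 405 to 487 in Exercise against 385 to 426 in Control hearts), and 3 of 8 atrial markers were higher (5210.2 to 7825 against 2881 to 7009). Of 6 endocardial markers 2 were higher (280 to 348 against 189 to 293), and of 6 valve markers the 2 called were Cytl1, which is also on the endocardial list, and Fmod (91.6 to 121 against 77.5 to 103). Of 8 mural markers, Cnn1 was higher and Rgs5 lower (1083 to 1248 against 1110 to 1280). Of 8 endothelial markers 1 was lower (961 to 1046 against 1064 to 1125), and of 12 clock genes 4 were higher and 3 lower. Among the lists given here with summed CPM by group, only the endothelial ranges did not overlap.

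Per transcript length, the 10 genes spanned a wide range of levels, compared here as TPM, the length-normalized transcript abundance that the authors computed. In the Control hearts Ltbp4 stood highest at 125 ± 6.17 TPM (SD, n = 5), above 96.3% of the tested genes. Ltbp3 followed at 19.0 ± 2.21 TPM, Tgfbr2 at 16.6 ± 2.12 TPM and Tgfb1 at 15.97 ± 1.53 TPM, and the ranges of neighbors among these 3 overlapped between hearts. Tgfbr3 at 11.9 ± 1.10 TPM and Ltbp1 at 10.9 ± 0.489 TPM also overlapped each other. Tgfb3 at 5.83 ± 0.642 TPM, Smad3 at 5.12 ± 0.378 TPM and Tgfbr1 at 4.30 ± 0.44 TPM formed the next overlapping run. Tgfb2 was lowest at 2.64 ± 0.469 TPM, and its highest Control heart, at 3.42 TPM, lay below the lowest of Tgfbr1, at 4.05 TPM. Between the groups Ltbp1 was again separate on this scale, from 12.1 to 15.1 TPM in Exercise and from 10.1 to 11.3 TPM in Control hearts.

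**Figure D1:**
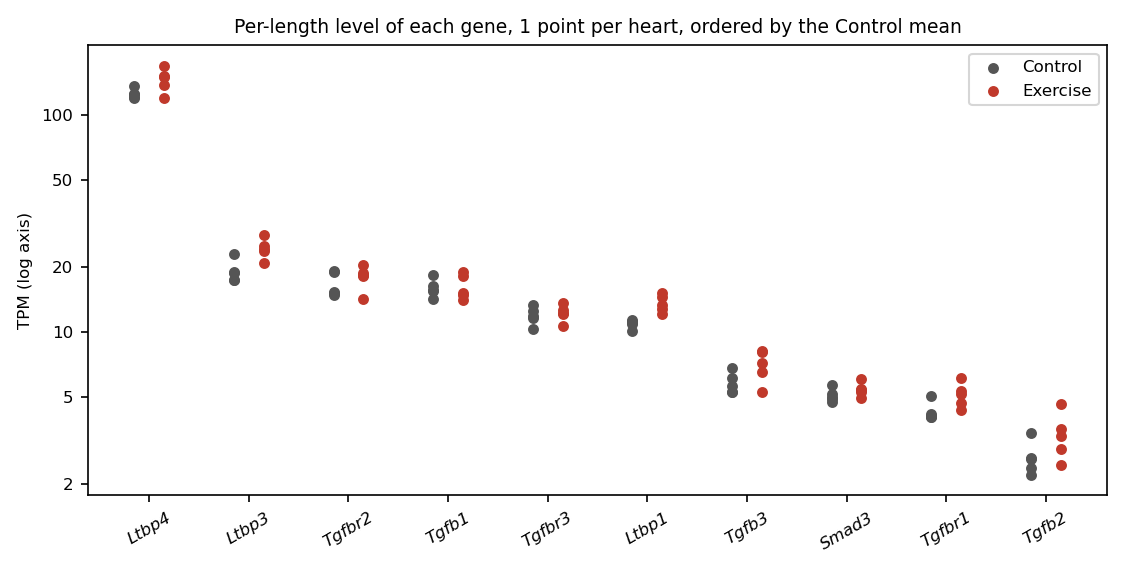
TPM of the 10 genes in each heart on a log axis, with genes ordered by the mean of the 5 Control hearts and 1 point per heart. Ltbp4, at 119 to 168 TPM over all hearts, stands apart from the other genes, and Tgfb2, at 2.20 to 4.64 TPM, lies at the bottom.

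Among the ligands, Tgfb1 is the main form in circulation and in the injured heart, Tgfb2 is a form with a large role in cardiac development, and Tgfb3 is close to both in its mature part. Tgfb1 accounted for 65.3% ± 4.62 (SD, n = 5) of the summed ligand TPM in Control and 60.9% ± 2.49 in Exercise hearts. Tgfb3 made up 23.9% ± 2.80 and 26.5% ± 1.48, and Tgfb2 10.8% ± 1.91 and 12.5% ± 1.63. The sum of the ligands was 24.45 ± 1.09 TPM in Control and 26.6 ± 3.94 TPM in Exercise hearts. Tgfb1 was the main ligand transcript in both groups, and the shares were not tested.

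Tgfb2 (ENSMUSG00000039239, chromosome 1 of GRCm39, 186354985 to 186438294, minus strand) was at 9.91, 14.0, 17.7, 14.4 and 12.0 CPM in Exercise hearts 1 to 5. In Control hearts 1 to 5 it was at 11.2, 9.46, 11.3, 11.4 and 9.84 CPM. Thus 4 Exercise hearts lay above every Control heart, while Exercise heart 1 lay inside the Control range, and the Exercise hearts spread widely (SD 2.93 against 0.91 CPM). Its log2 fold change of 0.36 was the largest of the 10 (95% interval 0.090 to 0.62, standard error 0.12) and missed the threshold (edgeR, adjusted p = 0.133). The adjusted p ranged from 0.0381, without Exercise heart 1, to 0.757, with a fibroblast marker score as a covariate, where the log2 fold change was 0.16. Adjusting for an atrial marker score gave 0.18. The call was made in 5 of 21 alternative fits, those being DESeq2, library totals alone, no filter on low counts, the clock gene score and the fit without Exercise heart 1. Between 9.23% and 16.1% of the stranded reads on Tgfb2 lay on the other strand, where the lncRNA gene Gm29491 overlaps it by 232 exonic bases, and for the other 9 genes this share was at most 4.27%.

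Tgfb3 (ENSMUSG00000021253, chromosome 12, 86102756 to 86126301, minus strand) was at 17.8, 25.2, 24.7, 22.6 and 19.6 CPM in the Exercise hearts and at 21.3, 17.7, 20.0, 19.2 and 18.3 CPM in the Control hearts, in the order of the mouse numbers. Exercise hearts 2, 3 and 4 lay above all Control hearts and the other 2 did not. Tgfb3 had a log2 fold change of 0.19 (adjusted p = 0.259 in edgeR, standard error 0.090), and of the 10 leave-one-out fits 1 called it, without Exercise heart 1 (adjusted p = 0.0957, over all alternatives 0.0957 to 0.814).

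Tgfb1 (ENSMUSG00000002603, chromosome 7, 25386390 to 25404506, plus strand) was at 28.96, 35.7, 36.1, 28.8 and 29.4 CPM in the Exercise hearts and at 28.4, 32.9, 31.6, 34.9 and 38.99 CPM in the Control hearts. All Exercise hearts lay inside the Control range. Its log2 fold change was −0.067 (95% interval −0.26 to 0.12, adjusted p = 0.727 in edgeR), and it was 0.035 with the atrial score as a covariate.

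**Figure D2:**
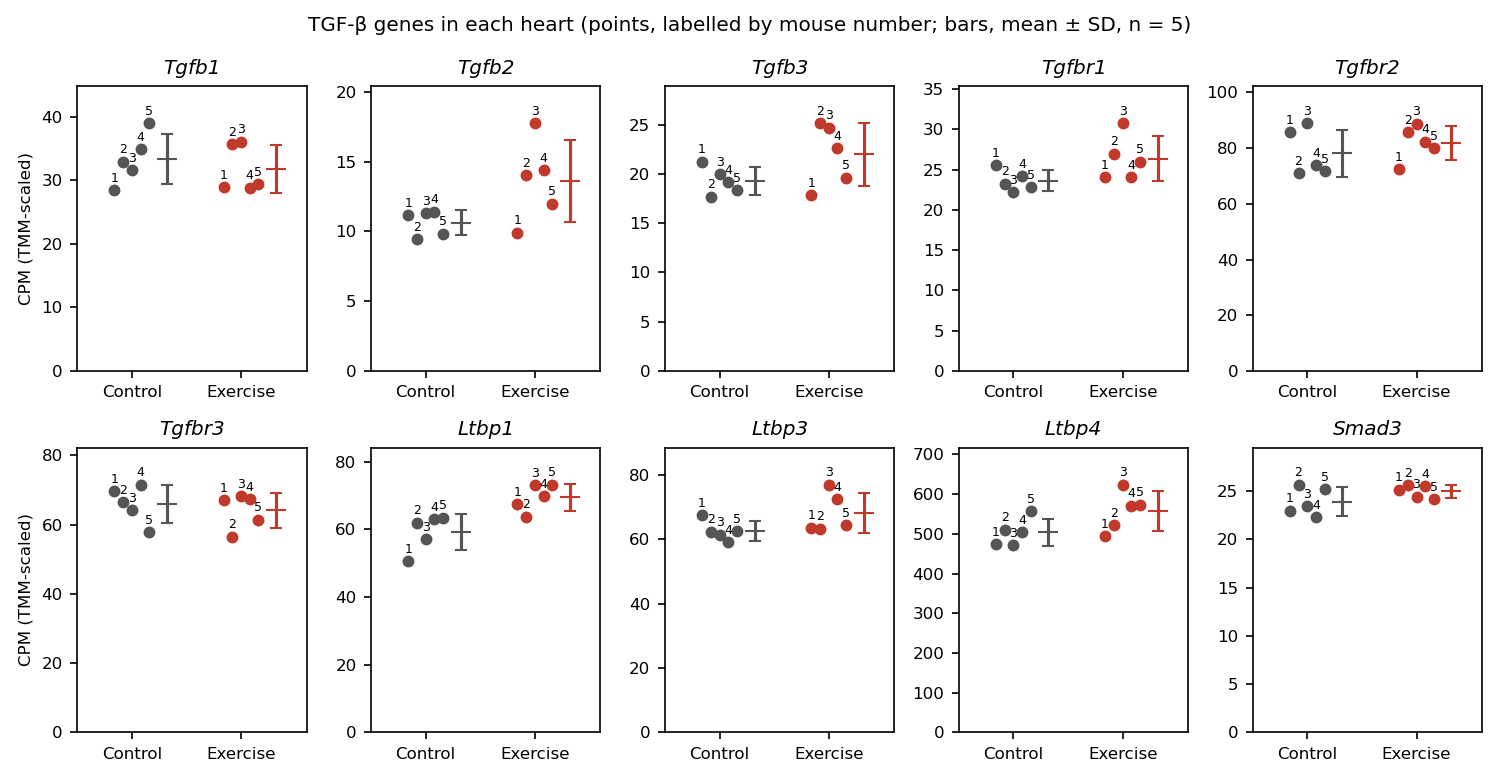
CPM of each gene in the 5 Control and 5 Exercise hearts, with points labelled by mouse number, axes from 0, and mean ± SD beside them. The groups are separate for Ltbp1, at 63.8 to 73.2 against 50.6 to 63.5 CPM, and overlap for the other 9 genes.

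Among the receptors, Tgfbr2 binds the ligand, Tgfbr1 (ALK5) is the kinase that phosphorylates SMAD2 and SMAD3, and Tgfbr3 (betaglycan) is a co-receptor that presents the ligand, TGF-β2 in particular. Tgfbr1 (ENSMUSG00000007613, chromosome 4, 47353134 to 47414931, plus strand) was at 24.0, 26.97, 30.8, 24.0 and 26.0 CPM in the Exercise hearts and at 25.5, 23.2, 22.2, 24.2 and 22.8 CPM in the Control hearts. Exercise hearts 2, 3 and 5 lay above all Control hearts. Between the groups the log2 fold change was 0.16 (95% interval 0.014 to 0.31) and did not pass (adjusted p = 0.209 in edgeR, 0.127 to 0.848 over the alternatives).

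Tgfbr2 (ENSMUSG00000032440, chromosome 9, 115913361 to 116004800, minus strand) was at 72.4, 85.8, 88.7, 82.3 and 80.1 CPM in the Exercise hearts and at 85.7, 71.0, 89.0, 73.8 and 71.7 CPM in the Control hearts. Both groups covered nearly the same range, and Control hearts 1 and 3 lay well above the other Control hearts. For Tgfbr2 the log2 fold change was 0.065 (95% interval −0.089 to 0.22, adjusted p = 0.669 in edgeR), and it was −0.047 with the atrial score and −0.028 with the fibroblast score as a covariate. Tgfbr3 (ENSMUSG00000029287, chromosome 5, 107249402 to 107437623, minus strand) was at 67.0, 56.5, 68.1, 67.3 and 61.4 CPM against 69.6, 66.5, 64.1, 71.5 and 57.8 CPM. The groups overlapped throughout, and the log2 fold change was −0.041 (95% interval −0.18 to 0.098, adjusted p = 0.780 in edgeR). It was 0.012 without a correction for library composition and 0.00082 without Exercise heart 2. Of the summed receptor TPM, Tgfbr2 held 50.5% ± 2.76 in Control and 50.6% ± 2.73 in Exercise hearts (SD, n = 5).

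**Figure D3:**
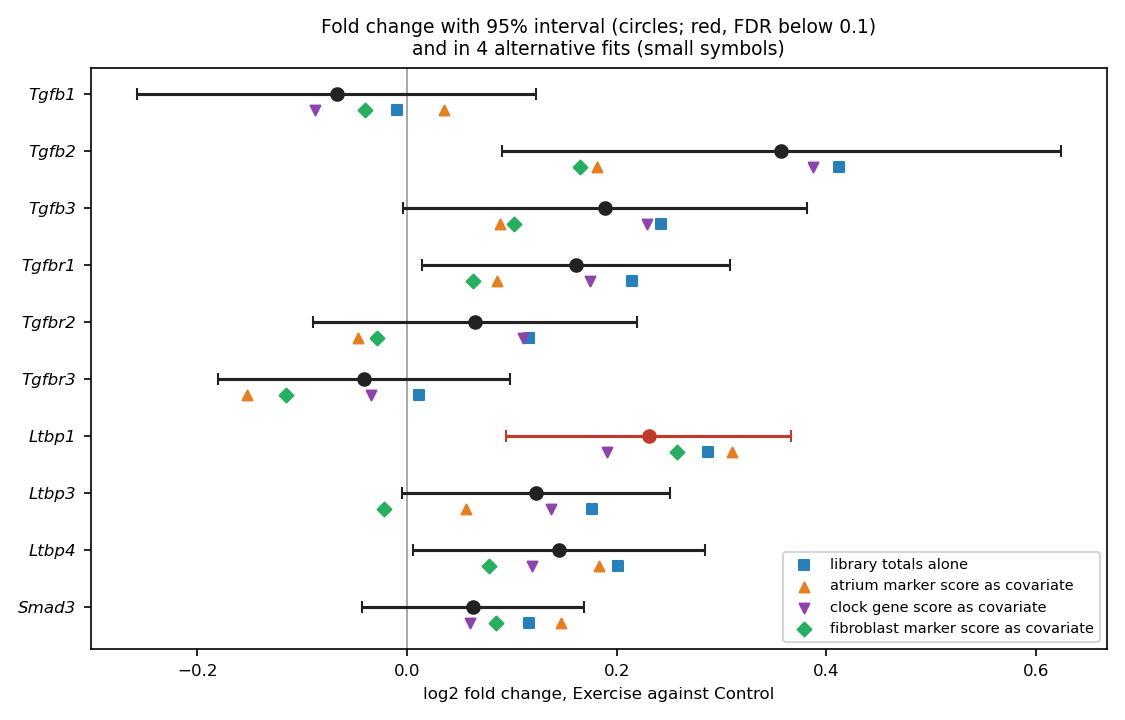
Log2 fold change (Exercise against Control) of each gene with its 95% interval from edgeR, in red at an FDR below 0.1, and its value in 4 alternative fits as small symbols. Ltbp1 stays between 0.19 and 0.31 in these fits, while Tgfb2 drops to 0.18 with the atrial and 0.16 with the fibroblast score.

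Among the latent binders, Ltbp1 and Ltbp3 bind the latent complexes of all ligands, while Ltbp4 is known to prefer TGF-β1 and also takes part in elastic fiber assembly. Ltbp1 (ENSMUSG00000001870, chromosome 17, 75312519 to 75699507, plus strand) was at 67.5, 63.8, 73.1, 69.8 and 73.2 CPM in Exercise hearts 1 to 5. In Control hearts 1 to 5 it was at 50.6, 62.0, 57.1, 63.0 and 63.5 CPM. Every Exercise heart lay above every Control heart, but Exercise heart 2 and Control heart 5 were only just apart. The means were 69.5 ± 4.00 and 59.2 ± 5.46 CPM (SD, n = 5), a difference of 17.3%. On the log2 scale the difference was 0.23 (95% interval 0.095 to 0.37, standard error 0.063, adjusted p = 0.0629 in edgeR), and Ltbp1 ranked 662 of 15454 by p-value.

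Leaving out 1 heart at a time, Ltbp1 kept its call in 6 of 10 fits. It was lost without Exercise heart 3 (adjusted p = 0.142 in edgeR), Exercise heart 4 (0.125), Exercise heart 5 (0.129) or Control heart 3 (0.139), where the log2 fold change was 0.21 to 0.23. With the atrial or the fibroblast score as a covariate its log2 fold change was 0.31 and 0.26, no smaller than without them, but the call was lost (adjusted p = 0.132 and 0.350 in edgeR). Among all tested genes, 1084 were called without these scores, 111 with the atrial and 34 with the fibroblast score. Over all alternatives the adjusted p of Ltbp1 ranged from 0.0211 to 0.350. Besides these marker lists, 7 of 12 clock genes were called, 4 higher and 3 lower. With a clock gene score as a covariate Ltbp1 was at 0.19 (adjusted p = 0.0259 in edgeR). This score is a mean over clock genes of which 6 were above 0 and 6 below. It overlapped between the groups, at −0.12 to 0.18 in Exercise and −0.30 to 0.20 in Control hearts. It therefore cannot adjust for a clock difference that runs in both directions, and the part of the clock genes in the Ltbp1 result was not tested.

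Ltbp4 (ENSMUSG00000040488, chromosome 7, 27004086 to 27037117, minus strand) was at 494, 521, 624, 571 and 574 CPM in the Exercise hearts and at 474, 510.4, 471, 504 and 557 CPM in the Control hearts. Exercise hearts 3, 4 and 5 lay above all Control hearts. Its log2 fold change of 0.14 (standard error 0.065, 95% interval 0.0054 to 0.28) did not pass (adjusted p = 0.232 in edgeR, 0.0974 to 0.806 over the alternatives). Ltbp3 (ENSMUSG00000024940, chromosome 19, 5790932 to 5808669, plus strand) was at 63.6, 63.3, 77.0, 72.4 and 64.5 CPM against 67.5, 62.3, 61.4, 59.0 and 62.6 CPM. Exercise hearts 3 and 4 alone lay above all Control hearts. Ltbp3 had a log2 fold change of 0.12 (adjusted p = 0.266 in edgeR, standard error 0.059), and it was −0.022 with the fibroblast score as a covariate.

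Smad3 (ENSMUSG00000032402, chromosome 9, 63554049 to 63665476, minus strand), the SMAD that carries most of the transcriptional response to TGF-β in fibroblasts, was at 25.1, 25.6, 24.4, 25.5 and 24.2 CPM in the Exercise hearts and at 23.0, 25.7, 23.4, 22.3 and 25.2 CPM in the Control hearts. The Exercise hearts lay close together and inside the Control range. Smad3 had a log2 fold change of 0.063 (95% interval −0.043 to 0.17, adjusted p = 0.521 in edgeR). Of its partners, none passed the threshold in edgeR with all 10 hearts. The values were 0.090 for Smad2 (adjusted p = 0.432), 0.15 for the shared partner Smad4 (adjusted p = 0.126) and 0.17 for the inhibitory Smad7 (adjusted p = 0.534 in edgeR), and Smad7 was at −0.041 with the atrial and −0.058 with the fibroblast score. Smad4 did pass with DESeq2, with library totals alone and without Exercise heart 1, and its adjusted p ranged from 0.0721 to 0.656 over the alternatives.

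The hearts of the Exercise group were unequal across these genes. Exercise heart 3 was the highest Exercise heart for 7 of the 10 genes and the highest of all 10 hearts for 4 of them, and Exercise heart 1 was the lowest Exercise heart for 4. Exercise heart 3 also had the highest summed fibroblast markers, at 487 CPM, and the highest atrial markers, at 7825 CPM. Without Exercise heart 3 the median log2 fold change of the 10 genes was 0.087, and 0 of them passed the threshold in edgeR, with 2 at an unadjusted p under 0.05. Control heart 1 had the lowest Ltbp1 and Tgfb1 of the Control hearts, but the highest Tgfb3 and Tgfbr1.

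**Figure D4:**
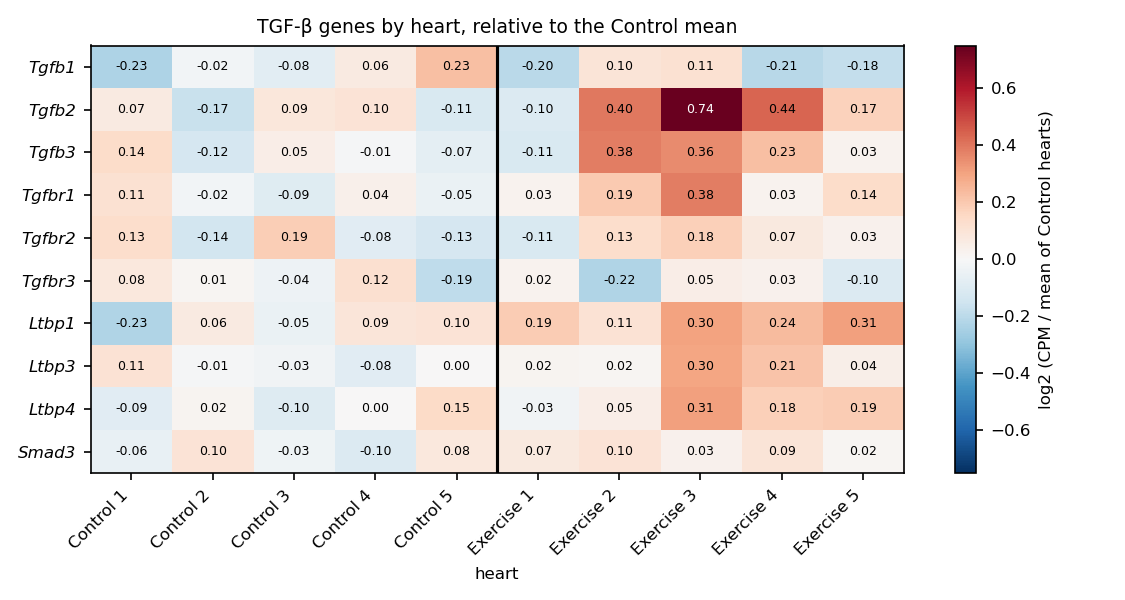
Log2 ratio of each heart's CPM to the Control mean for the 10 genes, with Control hearts on the left and Exercise hearts on the right of the line. Exercise heart 3 is above the Control mean for all 10 genes, most for Tgfb2 at 0.74, and Ltbp1 is above 0 in all 5 Exercise hearts.

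The RSEM tables give the transcript length of each gene, weighted by the abundance of its isoforms, which shifts when isoform use changes. Of the 10 genes, 9 had a length that varied between hearts, since Tgfb3 had 1 transcript. At an FDR below 0.1 in limma, 0 of the 9 were called, against 0.0308% of 12985 genes, and 2 of the 9 had an unadjusted p under 0.05, against 10.1% of the 12985 genes. The 2 were Ltbp3, at 3045 ± 222 bases in Exercise and 3350 ± 143 bases in Control hearts (limma, adjusted p = 0.422), and Tgfbr2, at 5003 ± 99.4 and 4856 ± 107.2 bases (SD, n = 5, limma, adjusted p = 0.485). The shorter Ltbp3 length goes with TPM that were 24.2 ± 2.57 in Exercise and 19.0 ± 2.21 in Control hearts, a wider gap than in CPM. Ltbp1 was at 5444 ± 155 and 5441 ± 179 bases.

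Genes around these 10 were taken from 5 lists written from knowledge of the pathway, with 93 genes, of which 88 were tested. In these lists 8 of the 88 genes were called, 4 higher and 4 lower, against 7.01% of all tested genes called in either direction. A log2 fold change above 0 was found for 60 of the 88, with a median of 0.052, against 50.1% of all tested genes. Of 23 partners and activators of latent TGF-β, 1 was higher and 1 lower. Fmod, a small proteoglycan that binds TGF-β, was at 34.4 ± 4.57 CPM in Exercise and 25.0 ± 2.79 CPM in Control hearts (log2 fold change 0.46, adjusted p = 0.0217 in edgeR), and it is also on the list of valve markers. Furin, the protease that cleaves the propeptide from the ligand, was lower, at 123 ± 7.93 against 142 ± 7.37 CPM (log2 fold change −0.20, adjusted p = 0.0482 in edgeR). No Exercise heart overlapped a Control heart for either gene, which was also so for 5.06% of all tested genes. The call of Furin was lost without Exercise heart 4 or Control heart 3 and without a correction for library composition and with the fibroblast score, where its log2 fold change was −0.27 (adjusted p at most 0.177 over all alternatives). Fmod kept its call in all 10 fits without 1 heart and lost it with the atrial score (log2 fold change 0.40, adjusted p = 0.202 in edgeR) and the fibroblast score (0.38, adjusted p = 0.303).

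Of 15 receptor partners and 15 SMAD partners, edgeR called 0 in each list, with 3 and 4 genes at an unadjusted p under 0.05, and DESeq2 called 1 in each. These shares are near or below those of all genes, 20% and 9.86%, for the receptor partners, and for the SMAD partners the first is slightly above. The medians were 0.036 and 0.090. Of 24 genes listed as targets of TGF-β, 23 were tested, and 3 were higher and 2 lower, with a median of 0.091. Among all tested genes, 2.75% were called higher and 4.26% lower in edgeR. Higher were Ccn2, a matricellular growth factor, at 384 ± 56.0 against 243 ± 38.4 CPM (log2 fold change 0.66), Comp, a matrix protein of tendon and cartilage, at 25.8 ± 3.58 against 17.1 ± 2.68 CPM (0.60), and Tagln, a smooth muscle actin-binding protein, at 58.9 ± 11.2 against 40.6 ± 8.38 CPM (0.54). Among the lower was the cell cycle inhibitor Cdkn1a, at 99.3 ± 6.88 against 171 ± 31.8 CPM (log2 fold change −0.79, adjusted p = 0.00504 in edgeR). The paper's discussion names both Ccn2 and Cdkn1a as downregulated after forced training, and Ccn2 had the opposite direction here. Ccn2, Comp and Cdkn1a kept their calls in all 10 fits without 1 heart. Tagln kept its call in 5 of these fits and lost it without Exercise heart 3, 4 or 5 or Control heart 2 or 4 (adjusted p at most 0.145), and also when reads of both strands were counted. With the atrial or fibroblast score as a covariate Cdkn1a alone of these 4 genes kept its call under both. Calls over all tested genes also fell with these scores, from 1084 to 111 with the atrial and 34 with the fibroblast score. The log2 fold changes with the atrial and the fibroblast score were 0.61 and 0.59 for Ccn2, 0.45 and 0.37 for Comp, and 0.43 and 0.22 for Tagln, so that Tagln moved most. Of the 8 mural markers, Cnn1 and Myh11 had the highest log2 fold changes. Cnn1 was higher at 13.0 ± 4.22 against 7.72 ± 2.12 CPM (log2 fold change 0.75, adjusted p = 0.0829 in edgeR). Myh11 was at 76.3 ± 16.6 against 59.8 ± 14.2 CPM (0.35, adjusted p = 0.254). The list did not move as a whole, with 4 markers above 0, 4 below and a median of −0.0029. Rgs5 was lower (−0.18, adjusted p = 0.0814 in edgeR). The smooth muscle actin gene Acta2, on the target list, was at −0.069 (adjusted p = 0.777 in edgeR). The part of smooth muscle cells in the Tagln result was not tested.

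Of 16 genes of the activin and GDF branch, which signals through the same SMADs, 12 were tested, 1 was lower and 0 higher. With 7.01% of all tested genes called in either direction, 1 of 12 is a share near that of all genes. Mstn, which encodes the muscle growth inhibitor myostatin, was at 0.544 ± 0.152 CPM in Exercise and 0.902 ± 0.137 CPM in Control hearts (log2 fold change −0.72, adjusted p = 0.0742 in edgeR). These are low levels, resting on 11 to 38 reads per heart. The groups did not overlap, which was also so for 5.06% of all tested genes. Mstn kept its call in 5 of the 10 fits without 1 heart, and lost it without Exercise heart 2, 3 or 5 or Control heart 3 or 4 (adjusted p at most 0.154). The call was also lost without a filter on low counts and with the atrial or the fibroblast score (adjusted p at most 0.326 over all alternatives), where the log2 fold change was −0.98 and −0.86.

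**Figure D5:**
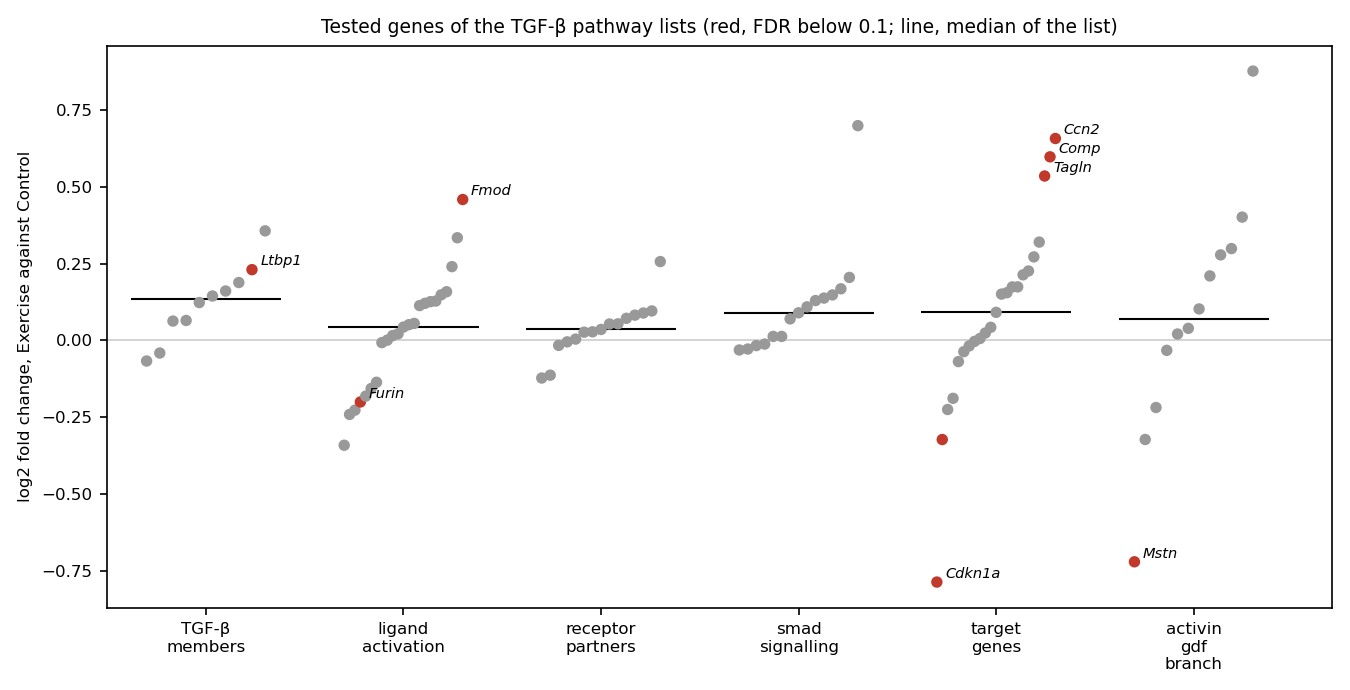
Log2 fold change (Exercise against Control) of the 10 TGF-β genes and of the tested genes of the 5 pathway lists, 1 point per gene, in red at an FDR below 0.1 and named where described in the text, with the median of each list as a line. The medians lie between 0.036 and 0.13, and called genes are found on both sides of 0.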

How the data were processed

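RNA of 5 Exercise and 5 Control whole hearts was made into directional poly-A libraries, sequenced as single reads in 1 pool. Per the labels, the authors aligned reads to GRCm39 with STAR 2.7.10a and deposited, for each gene and strand, counts of reads mapped to 1 place. They also deposited expected counts, TPM and isoform-weighted transcript lengths from RSEM 1.3.3, whose strand setting is not given in the sources used here. Lines that are no gene were left out. On the reverse strand, multimapping reads made up 17.9% to 19.2% and reads on no gene 4.15% to 4.89%.

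Reverse-strand counts were used, which held 94.9% to 95.6% of stranded counts. Symbols came from GENCODE M39 by Ensembl identifier (56017 of 56748 matched). In R 4.3.3, edgeR 4.0.16 was run on all genes after filterByExpr and TMM scaling, and its quasi-likelihood test was adjusted by Benjamini-Hochberg (FDR below 0.1). Standard errors are the log2 fold change over the root of its F statistic. Transcript lengths were compared on the log2 scale with limma 3.58.1. Both steps were tested on simulated data. Expected counts were rounded. Alternatives included DESeq2 1.42.0 and scores per heart, the mean centred log2 CPM (prior count 2) of a marker list, as covariates.

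The genes and lists were chosen with earlier results of these data known. Named beyond the 10 were list genes past the FDR, at most 6 per list, and Smad2, Smad4, Smad7 and Ccn2. Myh11 and Acta2, which did not pass, were also named as smooth muscle genes to set beside Tagln. Of the target genes, 1 that was called is not reported here. Nothing in the labels pairs hearts by mouse number.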

Additional observations from a re-analysis of the deposited data

How the results depend on the processing

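Of the 10 TGF-β genes, 1 was called in edgeR, and the number was 2 with DESeq2, 3 with library totals alone, 2 without a filter, 2 with the clock score, 0 with the atrial score, 0 with the fibroblast score and 0 at an FDR below 0.05. Leaving out each heart gave 0 to 3. The signs turned for Tgfbr3 (0.012 with library totals alone, and −0.085 to 0.00082 over the fits without 1 heart), Tgfb1 (0.035 with the atrial score), Tgfbr2 (−0.047 and −0.028 with the atrial and fibroblast scores) and Ltbp3 (−0.022 with the fibroblast score), and the cause was not tested. Tgfb2, Tgfb3, Tgfbr1, Ltbp1, Ltbp4 and Smad3 stayed above 0 in all 21 alternative fits.

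Of the pathway list genes, 8 were called, against 2 with the atrial score, 13 with the clock score, 1 with the fibroblast score, 5 at an FDR below 0.05, and 5 to 13 without 1 heart. On transcript length, 0 of the 9 genes whose length varied were called under any alternative of limma. Over all genes 1084 were called (425 higher and 659 lower), and 512 to 1490 without 1 heart. The number was 1610 with the clock score, 1411 with DESeq2 and 1065 without a filter, but 111 with the atrial and 34 with the fibroblast score. Library totals alone turned the split to 1029 higher and 339 lower. With the mouse number as a replicate block, 1 of the 10 genes, 9 list genes and 1137 genes in all were called. The numbers were not taken as pairs, since residuals of hearts with the same number correlated between −0.097 and 0.16, and 1 of 5 Exercise hearts matched best with its own number. The 10 hearts limit what could be seen: for Tgfb2 the 95% interval spans 0.090 to 0.62 on the log2 scale.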
